A study of Mus musculus with 6 samples.

Results

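The mouse mitochondrial genome gives rise to 37 transcripts, and all 37 have a row in the deposited table of 26452 genes, where they were chosen by gene symbols that begin with mt-. They fall into 3 classes, 2 ribosomal RNAs (rRNAs), 13 messenger RNAs (mRNAs) and 22 transfer RNAs (tRNAs). RNA came from the spleens of male mice aged 10 weeks. The knockout group (KO) was Was -/-, the strain 129S6/SvEvTac-Wastm1Sbs/J, and the wild-type group (WT) was 129S6/SvEvTac. Each group had 3 libraries, named KO451, KO452, KO457, WT453, WT454 and WT455 after the labels, each taken as 1 mouse. Was encodes the Wiskott-Aldrich syndrome protein, which drives actin assembly in blood cells, and the allele is present in every cell of the animal, so that the spleen cells compared need not be in the same proportions. Where a bulk sample differs, a change in the number of cells of a type and a change in the RNA per cell cannot be told apart.

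Mitochondrial DNA is a small circle that is copied into RNA over long stretches on both strands. The long precursors are cut at the tRNAs that lie between the other genes, which releases the rRNAs and mRNAs. The 2 rRNAs form the core of the ribosome that works inside the organelle, the mRNAs encode subunits of the respiratory chain and of ATP synthase, and the tRNAs serve translation there. In the annotation, 9 of the genes lie on the minus strand, mt-Nd6 and 8 tRNAs, which is the product of the light-strand promoter. The other genes lie on the plus strand, which is copied from the heavy-strand promoters.

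Reads assigned to genes ranged from 30661759 to 38402758 per library. Was itself ranged from 11.3 to 13.7 CPM (read counts scaled to a common library total) in KO and from 125 to 209 CPM in WT libraries, with a log2 fold change of -3.66 ± 0.25 (SE) and an adjusted p of 0.0117 (limma). WT453 stood apart from the other WT libraries. It was the lowest of the 6 libraries in 13 of 13 mitochondrial mRNAs, 2 of 2 rRNAs and 16 of 22 tRNAs, against 25.8% of all genes tested. Its 14 genes of tissue handling stress, such as Fos and Hspa1b, averaged 2.01 log2 units more than in the mean library, at a summed 2316 CPM against 785 to 916 CPM in WT454 and WT455 and 512 to 709 CPM in the KO libraries. Results that rest on this library are therefore given with and without it. Column names of the KO libraries carry a suffix that WT names lack. Its meaning is not given in the sources used here, and if it marks separate handling, that and genotype cannot be told apart.

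The rRNAs were higher in every KO library than in any WT library and had the lowest unadjusted p of the 37 transcripts. mt-Rnr1 (ENSMUSG00000064337, chrM:70-1024, plus strand, GRCm38) encodes the 12S rRNA of the small ribosomal subunit, and mt-Rnr2 (ENSMUSG00000064339, chrM:1094-2675, plus strand) the 16S rRNA of the large one. They are separated only by mt-Tv. Since the labels name an mRNA library kit, the most A-rich 60 bases of each rRNA are shown, from the GENCODE transcript of the gene, with runs of 4 or more A in capitals:
mt-Rnr1, chrM:695-754, 32 A: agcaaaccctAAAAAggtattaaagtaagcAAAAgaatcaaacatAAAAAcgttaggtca
mt-Rnr2, chrM:1454-1513, 35 A: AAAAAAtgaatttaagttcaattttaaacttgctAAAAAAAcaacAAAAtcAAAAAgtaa
The most A-rich 60 bases of the 13 mRNAs, without any added tail, held between 20 (mt-Nd6) and 34 (mt-Nd2) A. The stretches thus overlap in A content between the classes, apart from that of mt-Rnr2, which held more A than any of the 13 mRNAs. Whether these stretches bear on the rRNA values was not tested.

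Values are the deposited log2 of the normalized count plus 1, unless another scale is named. The log2 value of mt-Rnr1 was 16.03 in KO451, 16.08 in KO452 and 16.38 in KO457, against 14.21 in WT453, 14.57 in WT454 and 14.71 in WT455. That of mt-Rnr2 was 16.72, 16.80 and 17.10 in the KO libraries in the same order, and 14.55, 15.13 and 15.23 in the WT libraries. Every KO library lay above every WT library for both genes, and the groups were separated by more than the spread within either. The log2 fold change, KO minus WT, was 1.67 ± 0.23 (SE) for mt-Rnr1, or 3.18-fold, and 1.90 ± 0.26 (SE) for mt-Rnr2, or 3.74-fold. The unadjusted limma p was 0.000139 and 0.000146, and the Benjamini-Hochberg adjusted p over 22081 genes was 0.344 for both, so neither passed the threshold of 0.05. Without WT453 the log2 fold changes were 1.52 and 1.69, with adjusted p of 0.178 and 0.130 (limma). In limma voom with quality weights, which lets a deviating library count less, both passed, with adjusted p of 0.0281 for mt-Rnr1 and 0.0243 for mt-Rnr2, and they were the 2 genes called higher in KO among the 4 genes which that fit called, the others being Rac1 and Was, both lower. The authors' deposited table lists both at an FDR of 5.88e-09 for mt-Rnr1 and 5.88e-08 for mt-Rnr2.

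The rRNAs differed slightly from each other. The log2 ratio of mt-Rnr1 to mt-Rnr2 reads was -0.69, -0.72 and -0.72 in KO451, KO452 and KO457 and -0.33, -0.56 and -0.52 in WT453, WT454 and WT455, so that mt-Rnr2 exceeded mt-Rnr1 by more in each KO library than in any WT library. Per length, the level of mt-Rnr1 averaged 2176 RPKM (CPM per kilobase of the gene model) in KO and 764 in WT libraries, and that of mt-Rnr2 averaged 2149 and 647.

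**Figure D1:**
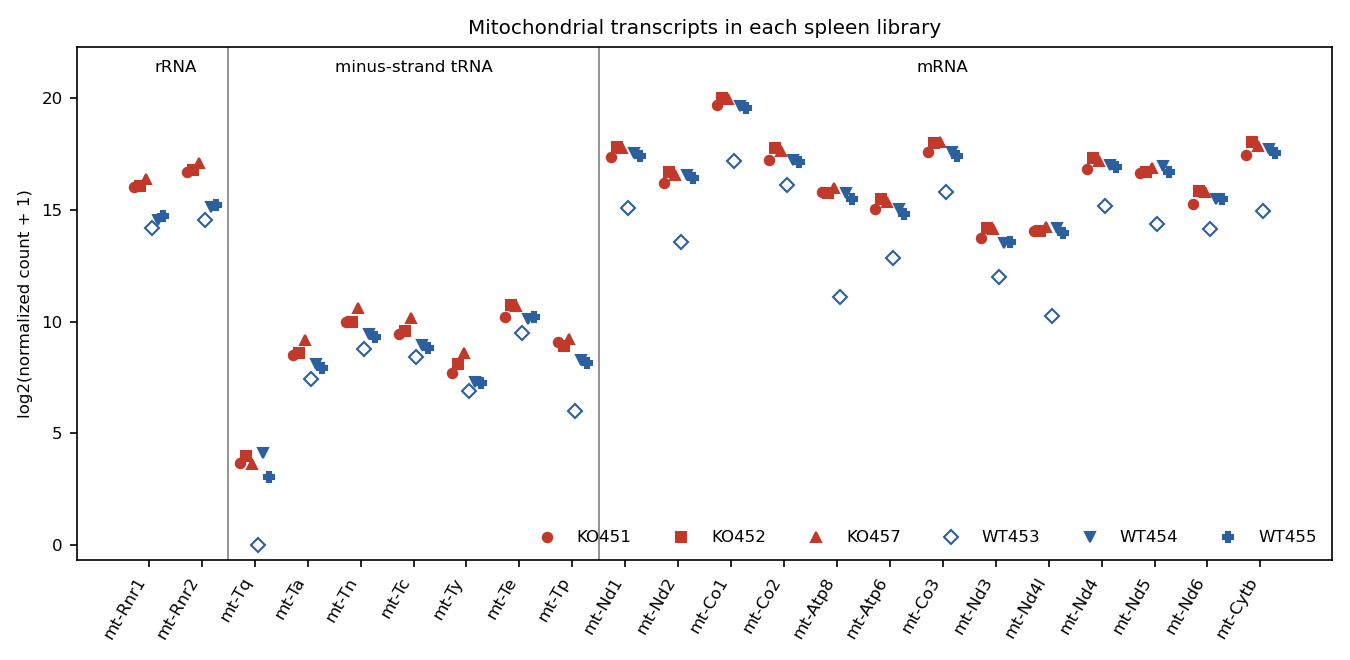
Log2(normalized count + 1) of the 2 rRNAs, the 7 minus-strand tRNAs with a mean normalized count of at least 10 and the 13 mRNAs in each of the 6 libraries; KO symbols are red, WT symbols blue, and WT453 is open. Both rRNAs and 5 of the 7 tRNAs separate the groups, whereas most mRNAs show WT453 apart and the other libraries close together.

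Across classes, none of the 37 transcripts passed the adjusted threshold in the main test, where 0.00906% of all genes were called, nor did any without WT453, where 0.00923% were. An unadjusted limma p under 0.05 was found for 9 of 37, all higher in KO, namely the 2 rRNAs, 1 mRNA and 6 tRNAs, against 11% of all genes tested in either direction and 5.5% in that direction. Without WT453 the number was 8 of 37, close to the 19.2% of all genes tested in that setting in either direction. All 8 were higher in KO, and the share of all genes in that direction alone was not computed without WT453. All 3 KO libraries lay above all 3 WT libraries for 12 of 37, namely 2 of 2 rRNAs, 4 of 13 mRNAs and 6 of 22 tRNAs, where the share over all genes was 9.54%, or 19.5% in either direction. No transcript had all KO libraries below all WT libraries, against 9.93% of all genes. The authors' deposited table lists 4 of the 37 at an FDR under 0.05, both rRNAs, mt-Tn and mt-Tc, against 3.58% of its rows in either direction and 2.14% higher in KO. The 37 genes were all tested, since each passed the filter of a mean normalized count of at least 1.

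As a share of reads assigned to genes, the rRNAs took 0.472%, 0.549% and 0.623% in KO451, KO452 and KO457 and 0.129%, 0.192% and 0.205% in WT453, WT454 and WT455. Their mean was 0.548% ± 0.0755 (SD, n = 3) in KO and 0.175% ± 0.0405 (SD, n = 3) in WT libraries, 3.12 times as high, or 2.76 times without WT453. The groups did not overlap. The mRNAs took 5.41%, 7.89% and 6.96% in the KO libraries and 1.35%, 6.73% and 6.05% in the WT libraries in the same order. Their means were 6.75% ± 1.25 (SD, n = 3) and 4.71% ± 2.93 (SD, n = 3), and KO451 lay below WT454 and WT455. Without WT453 the KO mean was 1.06 times the WT mean. With the reads of the nuclear copies described below added, the mRNA means were 9.38% ± 1.77 (SD, n = 3) in KO and 6.47% ± 3.84 (SD, n = 3) in WT libraries. The groups overlapped on that scale too, and the ratio of the means without WT453 was 1.08. The tRNAs took 0.0160% ± 0.00315 (SD, n = 3) in KO and 0.0101% ± 0.00348 (SD, n = 3) in WT libraries, and KO451 at 0.0125% lay below WT454 at 0.0128%. The KO mean of the tRNA share was 1.58 times the WT mean, or 1.33 times without WT453. As a percent of nuclear reads other than haemoglobin, the tRNA groups did not overlap. The Wilson 95% intervals of the class shares of reads assigned to genes, without the copies, are at most 0.00915 percentage points to either side. They cover counting error only.

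**Figure D2:**
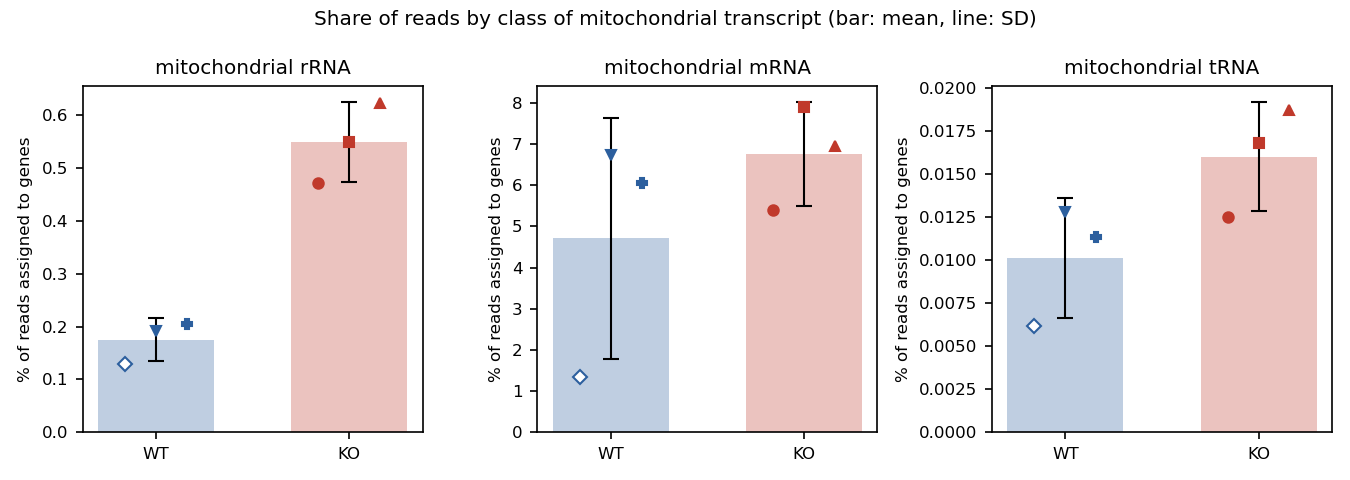
Percent of reads assigned to genes that fall on the rRNAs, mRNAs and tRNAs of the mitochondrial genome, with 1 point per library, bars for group means and lines for the SD (n = 3); each panel has its own axis from 0. Only the rRNA panel separates all 3 KO points from all 3 WT points, and the open point, WT453, is the lowest in each panel.

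A ratio between genes of 1 library does not depend on the scaling between libraries. The log2 ratio of mt-Rnr2 to mt-Co1 reads, the fixed pair of an rRNA and an mRNA, was -2.97, -3.23 and -2.85 in KO451, KO452 and KO457, and -2.65, -4.52 and -4.32 in WT453, WT454 and WT455. The KO libraries lay between WT453 and the other WT libraries, so the groups overlapped. The difference of means was 0.81, which an exact two-sided permutation test of 3 against 3 gave p = 0.4, where 0.1 is the smallest p possible. Without WT453 the difference was 1.41, and all KO libraries then lay above both WT libraries. Both genes were lowest in WT453, where the log2 value differed from the mean of the other WT libraries by -2.41 for mt-Co1 and by -0.63 for mt-Rnr2.

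The mRNAs encode 7 subunits of complex I (mt-Nd1 to mt-Nd6 and mt-Nd4l), cytochrome b of complex III (mt-Cytb), 3 subunits of cytochrome c oxidase (mt-Co1 to mt-Co3) and 2 of ATP synthase (mt-Atp6 and mt-Atp8). With all 6 libraries, 13 of 13 had a log2 fold change above 0, against 47.7% of all genes tested, with a median of 0.98 and a range of 0.61 to 1.74. The adjusted p ranged from 0.454 to 0.714 (limma). Without WT453 the median was 0.18, the range was -0.10 to 0.50, and 12 of 13 were above 0, against 48.7% of all genes. Without this library the mRNA differences were thus near 0, whereas those of the rRNAs were 1.52 and 1.69.

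The oxidase subunits included the most abundant transcript. mt-Co1, the catalytic subunit, had log2 values of 19.68, 20.03 and 19.96 in KO451, KO452 and KO457 and of 17.20, 19.65 and 19.55 in WT453, WT454 and WT455. KO451 exceeded WT454 by less than 0.1 on that scale, and the log2 fold change of 1.09 ± 0.66 (SE) was 0.29 without WT453 (limma adjusted p = 0.557 and 0.463). mt-Co3 also had all KO libraries above all WT libraries, at 17.62, 18.01 and 18.03 against 15.79, 17.58 and 17.43 in the same order, with a log2 fold change of 0.95 ± 0.49 (SE) and 0.38 without WT453. mt-Co2 did not, at 17.23 in KO451 against 17.25 in WT454. Its log2 fold change was 0.70 ± 0.36 (SE), the lowest standard error of the mRNAs, and 0.34 without WT453.

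Among complex I subunits, mt-Nd3 was the mRNA with an unadjusted p under 0.05. It was 1 of the 13 mRNAs, or 7.69%, against 11% of all genes tested. Its log2 values were 13.72, 14.19 and 14.17 in KO451, KO452 and KO457 and 12.02, 13.51 and 13.55 in WT453, WT454 and WT455. The log2 fold change was 1.003 ± 0.43 (SE), where limma gave an unadjusted p of 0.0491 (adjusted p = 0.454). With another pseudocount, filter or normalization the unadjusted limma p lay between 0.0531 and 0.0904. It was 0.0463 in limma voom and 0.0264 with quality weights. Without WT453 the log2 fold change was 0.50, the highest of the 13 mRNAs in that setting, where limma gave an unadjusted p of 0.0337 (adjusted p = 0.231). The other complex I subunits overlapped between the groups. For mt-Nd5 the difference was 0.74 ± 0.65 (SE) and -0.10 without WT453. mt-Nd2 had one of 0.98 ± 0.76 (SE) and of 0.0011, mt-Nd1 one of 0.98 ± 0.64 (SE) and of 0.18, and mt-Nd4 one of 0.75 ± 0.51 (SE) and of 0.15. mt-Nd6, the mRNA on the minus strand, had one of 0.61 ± 0.40 (SE) and of 0.17. For mt-Cytb the values were 1.05 ± 0.72 (SE) and 0.14. With all libraries, each of these differences apart from that of mt-Nd3 was smaller than the SD of the WT libraries.

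The 2 ATP synthase subunits and the pair mt-Nd4l and mt-Nd4 are each carried on 1 RNA with 2 overlapping reading frames. The models of mt-Atp8 and mt-Atp6 share 43 bases and those of mt-Nd4l and mt-Nd4 share 7. mt-Atp8 had log2 values of 15.82, 15.78 and 16.005 in KO451, KO452 and KO457 and of 11.12, 15.77 and 15.51 in WT453, WT454 and WT455. WT453 lay 4.52 below the mean of the other WT libraries, the largest gap of the mRNAs, followed by mt-Nd4l with 3.81. The log2 fold change of mt-Atp8 was 1.74 ± 1.14 (SE) and 0.23 without WT453, that of mt-Nd4l 1.297 ± 0.96 (SE) and 0.03, and that of mt-Atp6 1.07 ± 0.56 (SE) and 0.38.

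**Figure D3:**
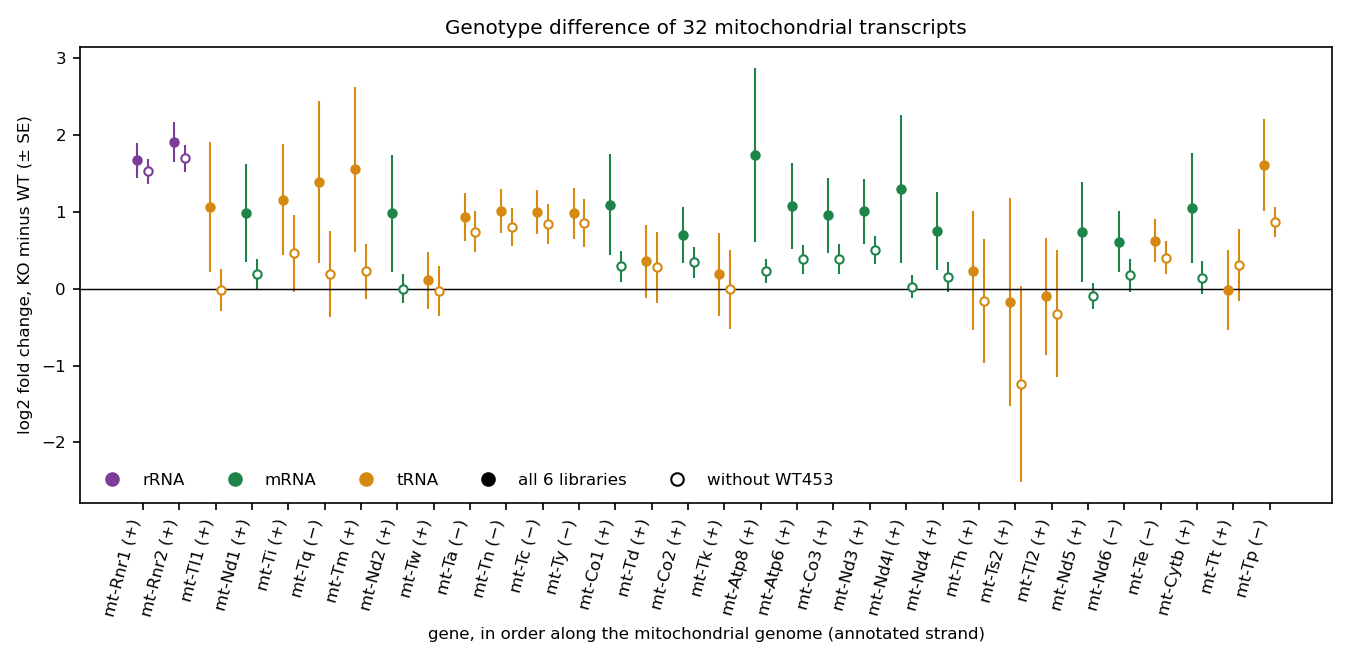
Log2 fold change, KO minus WT, with its standard error (limma) for the 2 rRNAs, 13 mRNAs and 17 tRNAs with a mean normalized count of at least 10, in order along the mitochondrial genome, with the annotated strand in brackets; filled points use all 6 libraries and open points leave out WT453. The rRNAs and the minus-strand tRNAs from mt-Ta to mt-Ty change little between the points, while the mRNAs move toward 0.

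The deposited table also bears, through nuclear copies, on where along 2 of the mRNAs the reads of WT453 fell. It holds 9 rows of pseudogenes that align to mitochondrial mRNAs over at least 50 bases with at least 90% identity and have a mean normalized count of at least 100. Of these, 7 form a block on chromosome 1 and 2 lie on chromosome 2. The copies on chromosome 1 were near-identical to their mitochondrial genes, from 99.7% to 100% over the aligned part, and those that span a whole gene held nearly the same number of reads. Gm28661 held 99.90% to 99.999% of the reads of mt-Co2, Gm28437 held 99.8% to 99.9% of those of mt-Co3, Gm10222 held 99.2% to 100.3% of those of mt-Nd4l and Gm28438 held 101% to 102% of those of mt-Nd3. Reads of these copies and genes cannot be told apart by sequence over most of their length, so the rows do not hold independent measurements. Whether the same reads were counted in both rows or shared equally between them was not tested. Gm10925, which spans mt-Atp6 but overlaps none of the other copies, held 4.97 to 6.14 times the reads of mt-Atp6, a row that overlaps mt-Atp8 and mt-Co3, so the level of mt-Atp6 is uncertain.

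Gm29216 covers only bases 1063 to 1545 of mt-Co1, its 3′ end, at 99.8% identity. Its reads were 40.5% of those of mt-Co1 in WT453 and between 14.7% and 17.9% in the other 5 libraries. Gm28439 (chr1:24611535-24612410) covers only bases 1 to 876 of the 1378 of mt-Nd4, its 5′ part, and its reads were 14.5% of those of mt-Nd4 in WT453 and between 32.4% and 37.7% in the others. If the reads of each copy follow those of its stretch, the reads of WT453 lay nearer the 3′ end in both mRNAs than those of any other library. Read positions were not measured, and how reads that match a copy were counted is not known. The upstream frame of each shared RNA was also low in WT453 relative to the downstream frame. The log2 ratio of mt-Atp8 to mt-Atp6 reads was -1.73 in WT453 and between 0.26 and 0.79 in the others, and that of mt-Nd4l to mt-Nd4 was -4.89 in WT453 and between -3.30 and -2.77 in the others. Since the level of mt-Atp6 is uncertain, so is the ratio of mt-Atp8 to it. The groups overlapped in each of these 4 measures. The part of such a shift along the RNAs in the mRNA values of WT453 was not tested.

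**Figure D4:**
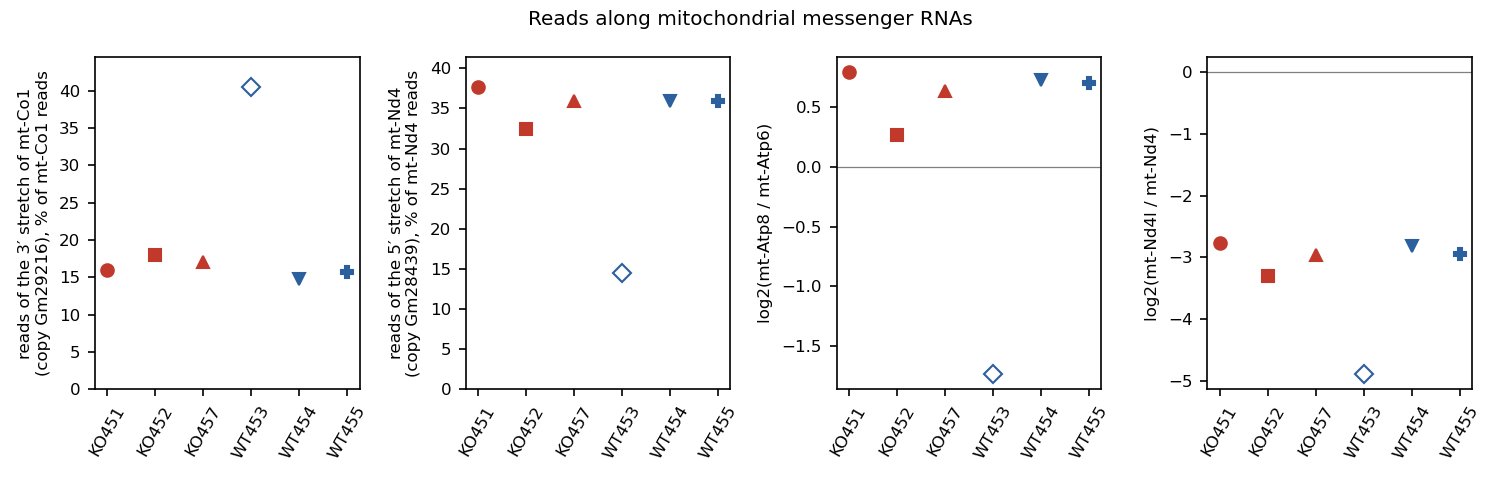
Reads of the copies that cover only the 3′ stretch of mt-Co1 and the 5′ stretch of mt-Nd4, as a percent of the reads of each gene, and log2 ratios of the upstream to the downstream frame of 2 shared RNAs, for each of the 6 libraries. WT453, the open point, is apart in each panel, at 40.5% and 14.5% and at log2 ratios of -1.73 and -4.89.

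WT453 was also uneven across the 13 mRNAs in amount. Relative to the mean of WT454 and WT455, its log2 value differed by -1.08 for mt-Co2, -1.32 for mt-Nd6, -1.51 for mt-Nd3 and -1.72 for mt-Co3, and by -2.705 for mt-Cytb and -2.94 for mt-Nd2. It was at least 2 lower for 8 of 13 mRNAs, 7 of 22 tRNAs and 0 of 2 rRNAs, against 7.17% of all genes tested. The rRNAs differed by -0.43 (mt-Rnr1) and -0.63 (mt-Rnr2), whereas the median over all genes tested was 0.04. Of the reads on the 13 mRNAs, mt-Co2 held 15.97% in WT453 and 7.40% to 8.43% in the other libraries, and mt-Co1 held 33.6% against 39.0% to 42.0%.

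Per length, mt-Co1 was the most abundant mRNA, with a mean of 17864 RPKM in KO and 11854 RPKM in WT libraries. It was followed in KO libraries by mt-Co3 (8802), mt-Atp8 (8249) and mt-Co2 (8016), whose library values overlapped, then by mt-Nd1 (6152) and mt-Cytb (5706), which also overlapped. The remaining mRNAs lay between 1373 (mt-Nd3) and 2956 (mt-Nd4). Both rRNAs, at 2149 and 2176, had values within the range of these remaining mRNAs in KO libraries. The libraries were made with an mRNA kit, and its part in the rRNA values was not tested. The order of the mRNAs is also limited by the nuclear copies. The levels of mt-Co2, mt-Co3, mt-Nd3 and mt-Nd4l depend on how reads that match a copy were counted, and that of mt-Atp6 is uncertain. In the models of mt-Co3, mt-Nd4 and mt-Cytb, 3 of the 13, the last codon is incomplete, as is known of mitochondrial mRNAs whose stop codon is completed by the A tail.

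The tRNAs are given by strand. The models are only 59 to 75 bases long, so a row may hold reads that run on from a precursor, which was not tested. Among the 17 tRNAs with a mean normalized count of at least 10, the 7 on the minus strand all had a log2 fold change above 0, with a median of 0.996, and 5 of them had all KO libraries above all WT libraries, against 9.54% of all genes. Of the 10 on the plus strand, 7 were above 0, against 47.7% of all genes, with a median of 0.21, and 0 had groups that did not overlap. Without WT453 the medians were 0.80 on the minus strand, with 7 of 7 above 0, and -0.01 on the plus strand, with 4 of 10 above 0, against 48.7% of all genes. Mean normalized counts ran from 10.3 (mt-Tq) to 1261 (mt-Te) on the minus strand and from 10.8 (mt-Tk) to 428 (mt-Tl1) on the plus strand, where the standard errors reached 1.35 (mt-Ts2). With the rarer tRNAs included, 7 of 8 on the minus strand and 10 of 14 on the plus strand were above 0 with all libraries. All KO libraries then lay above all WT libraries for 5 of 8 and 1 of 14. The difference between the strands was not tested. The strand setting of the counts is not given in the sources used here. If reads were counted without regard to strand, those of a minus-strand tRNA and of a precursor of the other strand cannot be told apart.

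Of the minus-strand tRNAs, 4 lie next to each other between mt-Nd2 and mt-Co1, around the start site of light-strand DNA synthesis. They carry alanine (mt-Ta), asparagine (mt-Tn), cysteine (mt-Tc) and tyrosine (mt-Ty). mt-Tw, for tryptophan, ends just before mt-Ta on the other strand. mt-Tp, for proline, is the last minus-strand gene before the control region. They are shown as the minus-strand tRNAs whose groups did not overlap, together with the plus-strand neighbour, with the anticodon in capitals, as DNA letters of the RNA strand from the GENCODE transcripts (GRCm38):
mt-Tw, chrM:4950-5016, plus strand: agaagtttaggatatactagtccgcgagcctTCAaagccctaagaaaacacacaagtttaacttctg
mt-Ta, chrM:5018-5086, minus strand: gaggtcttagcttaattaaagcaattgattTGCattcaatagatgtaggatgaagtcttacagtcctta
mt-Tn, chrM:5089-5159, minus strand: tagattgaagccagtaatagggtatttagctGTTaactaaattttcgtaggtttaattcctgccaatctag
mt-Tc, chrM:5192-5257, minus strand: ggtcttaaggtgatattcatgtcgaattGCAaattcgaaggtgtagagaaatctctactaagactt
mt-Ty, chrM:5260-5326, minus strand: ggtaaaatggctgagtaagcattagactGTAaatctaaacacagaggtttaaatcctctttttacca
mt-Tp, chrM:15356-15422, minus strand: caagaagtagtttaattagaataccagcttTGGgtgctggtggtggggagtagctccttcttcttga

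mt-Tn, the most abundant of the 4 neighbours, had log2 values of 9.97, 9.99 and 10.62 in KO451, KO452 and KO457 and of 8.78, 9.46 and 9.32 in WT453, WT454 and WT455. mt-Tc had 9.44, 9.57 and 10.16 against 8.41, 8.93 and 8.83 in the same order. KO457 was the highest library in both, and no WT library reached a KO library. The same held for mt-Ta, with 8.51, 8.57 and 9.17 against 7.42, 8.09 and 7.93, and for mt-Ty, with 7.69, 8.10 and 8.59 against 6.89, 7.30 and 7.25. The log2 fold changes were 1.01 ± 0.29 (SE) for mt-Tn, 0.996 ± 0.28 (SE) for mt-Tc, 0.94 ± 0.31 (SE) for mt-Ta and 0.98 ± 0.33 (SE) for mt-Ty, with unadjusted limma p between 0.00899 (mt-Tc) and 0.0196 (mt-Ty) and adjusted p of 0.349 to 0.373. Without WT453 they were 0.80, 0.84, 0.74 and 0.85, so that all 4 stayed above 0.7 in that setting.

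mt-Tw, the plus-strand neighbour, had log2 values of 5.65, 5.88 and 5.96 in KO451, KO452 and KO457 and of 5.43, 5.98 and 5.75 in WT453, WT454 and WT455. The groups overlapped, and the log2 fold change was 0.11 ± 0.37 (SE). mt-Tw is the rarer transcript, with a mean normalized count of 54.3 against 334 for mt-Ta. The difference between the neighbours was not tested.

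mt-Tp had log2 values of 9.10, 8.90 and 9.22 in KO451, KO452 and KO457 and of 5.97, 8.27 and 8.16 in WT453, WT454 and WT455. Its log2 fold change was 1.61 ± 0.60 (SE) and 0.86 without WT453, with an unadjusted limma p of 0.0309 and of 0.0041 in turn and adjusted p of 0.409 and 0.190. For mt-Te, for glutamate, next to mt-Nd6, the log2 fold change was 0.62 ± 0.28 (SE) and 0.40 without WT453. Its value in KO451, 10.19, lay just below that in WT455, 10.20. mt-Tq, for glutamine, had 0 reads in WT453, which allows up to 0.0931 CPM, and log2 values of 3.05 to 4.11 elsewhere.

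On the plus strand, mt-Tl1, one of the tRNAs for leucine, lies directly between mt-Rnr2 and mt-Nd1. Its log2 values were 8.55, 9.22 and 9.07 in KO451, KO452 and KO457 and 5.74, 9.18 and 8.75 in WT453, WT454 and WT455. Its difference, 1.06 ± 0.85 (SE), was -0.02 without WT453, unlike that of mt-Rnr2 on its 5′ side and close to that of mt-Nd1 on its 3′ side. mt-Tm, before mt-Nd2, had 1.55 ± 1.07 (SE) and 0.23 without WT453, and mt-Ti, after mt-Nd1, had 1.16 ± 0.72 (SE) and 0.46. The other 7 tRNAs of this strand with a mean of at least 10 had log2 fold changes between -0.17 and 0.35 with all libraries. The 5 tRNAs under that mean, mt-Tf, mt-Tv, mt-Tg, mt-Tr and mt-Ts1, had log2 fold changes of -0.09 to 1.304. Of these, mt-Tf, the first gene of the heavy-strand transcript and upstream of mt-Rnr1, had all KO libraries (3.41 to 4.14) above all WT libraries (2.36 to 2.63), at a mean normalized count of 9.08.

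Over the 6 libraries, the log2 values most like those of mt-Rnr2 among mitochondrial transcripts were those of mt-Rnr1 (Pearson r = 0.999), mt-Tc (0.954), mt-Tn (0.950) and mt-Ta (0.942), while the mRNAs ranged from 0.59 (mt-Nd5) to 0.83 (mt-Nd3). Among 9520 nuclear genes with a mean of at least 10 CPM, the 5 most alike were Mrpl17 (0.998), Cryzl1 (0.992), C1qbp (0.992), Iglc1 (0.989) and Mrpl16 (0.987). Mrpl17 and Mrpl16 encode proteins of the large mitochondrial ribosomal subunit and C1qbp a protein of the mitochondrial matrix. The points share the same 6 libraries and their scaling, and with so many genes ranked on 6 points, values near 1 are a description only.

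Nuclear genes that act on these RNAs were taken from 9 lists with 132 symbols, of which 126 had a row. None passed the adjusted threshold in limma, and 6 had an unadjusted p under 0.05 (4.76%, against 11% of all genes tested). Of the 126, 47 were higher and 79 lower, so that 37.3% were higher, against 47.7% of all genes tested. The median log2 fold change was -0.11 against -0.03 over all genes. Of 11 genes of mitochondrial transcription, 10 had a log2 fold change below 0, against 11552 of 22081 over all genes tested, with a median of -0.31. Polrmt, the RNA polymerase of the organelle, was at 13.7, 15.02 and 11.9 CPM in KO451, KO452 and KO457 and at 20.04, 23.7 and 26.4 CPM in WT453, WT454 and WT455. The groups did not overlap, which was a condition for naming it. In this list 4 of 11 genes had all KO libraries below all WT libraries, against 9.93% of all genes tested. All KO libraries lay above all WT libraries for 0 of 11, against 9.54%. The log2 fold change of Polrmt was -0.64 ± 0.22 (SE, limma adjusted p = 0.377) and -0.72 without WT453. Mitochondrial rRNA and ribosome assembly genes were split, 11 of 21 higher, with a median of 0.01. They included Mettl17 (-1.38 ± 0.43 SE, limma adjusted p = 0.355, and -0.93 without WT453), a ribosome assembly factor, and Mpv17l2 (0.35 ± 0.22 SE, and 0.42 without WT453).

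The other lists had medians between -0.15 and 0.00, and their counts below 0 stand beside 11552 of 22081 over all genes tested. Replication and upkeep of mitochondrial DNA had 12 of 14 genes below 0, among them the polymerase subunit Polg2 (-0.96 ± 0.50 SE, -0.39 without WT453). For transcript processing, 6 of 10 were below 0. Hsd17b10, a subunit of the enzyme that cuts the 5′ ends of the tRNAs, had 0.50 ± 0.27 (SE) and 0.32 without WT453. For mRNA stability and polyadenylation 5 of 10 were below 0, with Pde12 at 0.36 ± 0.21 (SE) and Fastkd1 at -0.63 ± 0.24 (SE). Without WT453 Pde12 was at 0.22 and Fastkd1 at -0.64. The tRNA modification list had 10 of 16 below 0, with Nsun3 at 0.44 ± 0.21 (SE) and Trmu at -0.82 ± 0.35 (SE). Without WT453 Nsun3 was at 0.43 and Trmu at -0.57. Of the mitochondrial aminoacyl-tRNA synthetases and their partners 12 of 22 were below 0, with Qrsl1 at -0.65 ± 0.31 (SE) and -0.41 without WT453. Of the translation factors 7 of 13 were below 0, with Mtfmt at -0.61 ± 0.25 (SE) and -0.51 without WT453. The nuclear regulators had 7 of 9 below 0, with Nrf1 at 0.45 ± 0.29 (SE) and Esrra at -0.48 ± 0.30 (SE). Without WT453 Nrf1 was at 0.35 and Esrra at -0.16.

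Nuclear genes for proteins of the same complexes were mostly above 0, against 47.7% of all genes tested. Of 82 mitochondrial ribosomal protein genes 65 had a log2 fold change above 0, with a median of 0.22 and 0.31 without WT453. Of 85 nuclear genes matched as respiratory chain and ATP synthase subunits 73 were above 0, with a median of 0.27 and 0.50 without WT453, beside medians of 0.98 and 0.18 for the 13 mitochondrial mRNAs. In WT453 the members averaged 0.11 and 0.30 log2 units relative to the mean library, whereas the 13 mitochondrial mRNAs averaged -2.08. The difference between these lists and the mitochondrial transcripts was not tested.

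Markers of cell types differed in mean level between the groups, although none passed the adjusted threshold in limma. In the authors' deposited comparison, 11 of 12 red cell precursor markers had an FDR under 0.05, against 3.58% of all rows in either direction. The count was 0 of 8 for B cell, 1 of 8 for T cell and 1 of 8 for red pulp macrophage markers. All 12 of 12 red cell precursor markers were higher in KO libraries, by a median of 2.82 on the log2 scale (2.30 without WT453), at a summed level of 28048 to 82762 CPM in KO against 2404 to 12601 CPM in WT libraries. Their mean was highest in KO451, 2.51 log2 units relative to the mean library, against 0.66 in KO452 and 0.99 in KO457, and -2.27, -1.37 and -0.52 in WT453, WT454 and WT455. The rRNAs averaged 0.75, 0.81 and 1.12 in the KO libraries and -1.25, -0.78 and -0.66 in the WT libraries in the same order. Both were thus ordered alike among the WT libraries, and KO451 had the highest red cell value and the lowest rRNA value among the KO libraries. All 8 B cell markers and all 8 T cell markers were lower, with medians of -0.64 and -0.49 (-1.13 and -0.93 without WT453). The groups did not overlap for 1 of 8 in each list, against 9.93% of all genes with KO lower. The B cell mean was -0.81 in WT453, below KO451, KO452 and KO457 (-0.64, 0.24 and -0.57), and 1.07 and 0.71 in WT454 and WT455. The T cell mean was -0.53 in WT453, against -0.69, 0.25 and -0.35 in the KO libraries and 0.71 and 0.61 in WT454 and WT455. All 8 red pulp macrophage markers were higher, with a median of 0.96 (0.39 without WT453, 7 of 8 higher). Their groups did not overlap for 3 of 8, against 9.54% with KO higher, and their mean was -1.68 in WT453. Every marker of these spleen lists passed the filter on low values. Of 13 pancreas symbols 5 had a row, with a summed 32.3 to 44.1 CPM in KO and 14.02 to 24.2 CPM in WT libraries, nearly all of it Cela1. The part of any of these in the rRNA and tRNA values was not tested.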

How the data were processed

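Spleen RNA of 3 KO and 3 WT mice was made into libraries with an mRNA kit, per the labels' protocols. The build was GRCm38, and StringTie 1.3.1c, DESeq, STAR 2.5.3a and FastQC 0.11.5 were used, per the submitters' processing notes, with no roles stated. Not given in the sources used here were the counting step, annotation, strand setting and handling of reads that match several genes. In 1 table the authors deposited log2 values, the log2 of the count divided by a size factor, plus 1, as read from the values: each gave a whole number of reads within a tolerance of 0.001, for 100% of values. It also holds the deposited p-value and FDR of the authors' own comparison, whose method is not stated.

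Limma 3.58.1 in R 4.3.3 with an intensity trend was fitted on the deposited log2 values of 22081 genes with a mean normalized count of at least 1, 4371 being left out, with genotype as the term and no covariate. Adjustment was by Benjamini-Hochberg over all genes, with a threshold of 0.05. Fold changes on this scale understate those of rare transcripts. The fit was also run on simulated data with the same dispersion for all genes and no deviating library. That run does not show how the fit behaves with a library such as WT453. Gene models and sequences came from GENCODE M21 (GRCm38), which holds 26404 of the 26452 identifiers and all 37 members, and copies were found with blastn 2.17.0. Alternatives were a pseudocount of 0.1, no filter, a filter of 1 CPM, quantile normalization, scaling on nuclear genes without haemoglobin, the mitochondrial rows and their copies, voom with and without quality weights, each library left out and other denominators. The one without the copies was chosen after seeing the data.

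Named were all rRNAs and mRNAs, tRNAs with a mean normalized count of at least 10, and in each nuclear list the largest rise and fall without overlap of the groups and with at least 1 CPM, of which 1 gene is not reported here. The tRNAs under that mean were named after their values were seen. The members, lists and ratios were chosen with earlier results of these data known. Nothing beyond the library numbers says how the mice were kept apart, so a p-value reflects only how these 6 libraries vary.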

Additional observations from a re-analysis of the deposited data

How the results depend on the processing

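The log2 fold change of mt-Rnr1 stayed between 1.46 and 1.77 and that of mt-Rnr2 between 1.67 and 2.04 over the 13 alternatives tried, and both passed the threshold in voom with quality weights only (1.57, adjusted p = 0.0281, and 1.75, adjusted p = 0.0243). Over all alternatives their adjusted p ranged up to 0.690. The number of genes called was 2 in the main test, 1 in voom, 4 in voom with quality weights and 0 to 2 with 1 library left out (0 without KO451, KO452, KO457, WT454 or WT455). At an unadjusted p under 0.05 those 5 settings held 1487 to 2337 genes. With 1 library left out, the log2 fold change ranged from 1.52 to 1.77 for mt-Rnr1, from 1.69 to 2.04 for mt-Rnr2, and the ratio of mt-Rnr2 to mt-Co1 differed by 0.47 to 1.41. The rRNA share differed by 0.372 percentage points, by 0.335 to 0.410 with 1 library left out and by 0.447 as a percent of nuclear reads other than haemoglobin. The mRNA share differed by 2.04 percentage points, by 0.363 to 3.05 with 1 library left out, and the tRNA share by 0.00393 to 0.00763. No paired analysis was possible because the groups share no animal number.

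Among the rRNAs, the mRNAs and the tRNAs with a mean normalized count of at least 10, the sign changed for mt-Nd5 and 7 tRNAs. The tRNAs under that mean are not in this count. One of them, mt-Ts1, was at -0.09 with all libraries and at 0.28 without WT453. With 1 library left out, mt-Nd5 ranged from -0.10 to 1.22, mt-Tl1 from -0.019 to 1.70, mt-Tw from -0.034 to 0.24, mt-Tk from -0.011 to 0.42, mt-Th from -0.16 to 1.03, mt-Ts2 from -1.24 to 1.04, mt-Tl2 from -0.58 to 0.60 and mt-Tt from -0.28 to 0.31. mt-Tt was 0.078 with quantile normalization, 0.0049 in voom and 0.32 with quality weights, mt-Ts2 was 0.17 and mt-Tl2 0.057 with quantile normalization, and mt-Th was -0.10 with quality weights. The cause was not tested.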
